A study of Homo sapiens with 18 samples.

Results

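ERN2, also called IRE1β, is a sensor of endoplasmic reticulum (ER) stress found in mucosal epithelium. It was induced to a low and to a high level in HEK293doxERN2 cells, and both sets of cells were then stressed with thapsigargin. HEK293 is a human embryonic kidney cell line, and HEK293doxERN2 is a derivative of it with a doxycycline-inducible transgene for FLAG-tagged human ERN2. The comparison held 6 of the 18 RNA-seq libraries of the series, chosen by their labels alone. They were 3 libraries of low ERN2 (10 ng/mL doxycycline for 24 hours) and 3 of high ERN2 (100 ng/mL for 24 hours). All 6 cultures received 200 nM thapsigargin for 3 hours, and all carried the transgene. The other 12 libraries were the vehicle (DMSO) cultures at both doses and the uninduced cultures (0 ng/mL doxycycline) with and without thapsigargin. The high-dose cells received more doxycycline as well as more ERN2, and these cannot be told apart, because no line without the transgene was analysed here. The labels do not say that the 3 libraries of a group came from separate experiments, so p-values measure the spread between these libraries.

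Thapsigargin blocks the calcium pump of the ER, and the emptied calcium store impairs the folding of proteins there. The unfolded protein response that follows has 3 arms. ERN1 (IRE1α) is an ER membrane kinase and endonuclease that splices XBP1 mRNA into the form encoding an active transcription factor. PERK slows translation and favours ATF4 and DDIT3 (CHOP), and ATF6 induces ER chaperones such as HSPA5 (BiP). IRE1 proteins can also cleave other mRNAs at the ER membrane, a process called regulated IRE1-dependent decay (RIDD), and ERN2 is the paralogue that mucosal epithelial cells carry beside ERN1.

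The 6 libraries held 14876416 to 24413882 counted reads. Levels are given as CPM, reads of a gene per 1e6 reads counted, scaled between libraries with trimmed-mean factors. The test was the quasi-likelihood test of edgeR, and genes are called at a Benjamini-Hochberg adjusted p under 0.01. The label on RNA extraction names colon crypt cells, whereas the other labels name HEK293. The summed level of 5 HEK293 markers was 2108 to 2465 CPM at the low dose and 2378 to 2548 CPM at the high dose, most of it from VIM (up to 1925 CPM). Of the 5, CDH2 fell at the high dose (log2 fold change -0.94, SE 0.17, adjusted p = 0.0035, edgeR) and LIN28B missed the threshold at 0.93 (adjusted p = 0.012, edgeR). Of 10 colon epithelium markers, 3 had no read in any of the 6 libraries and 9 stayed under 1 CPM, the exception being CDX2.

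The libraries differed along the GC content of transcripts. Genes were split by GC content into 5 equal bins, and the median deviation in log2(CPM + 1) ran from 0.44 in the lowest bin to -0.31 in the highest in high-dose replicate 3, and from 0.22 to -0.23 in high-dose replicate 2. High-dose replicate 1 ran the other way, from -0.19 to 0.10, as did low-dose replicate 3, from -0.32 to 0.31. GC content therefore moved partly with dose, and counts and medians with a smooth GC trend removed from each library are given beside results that this removal moved.

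**Figure D1:**
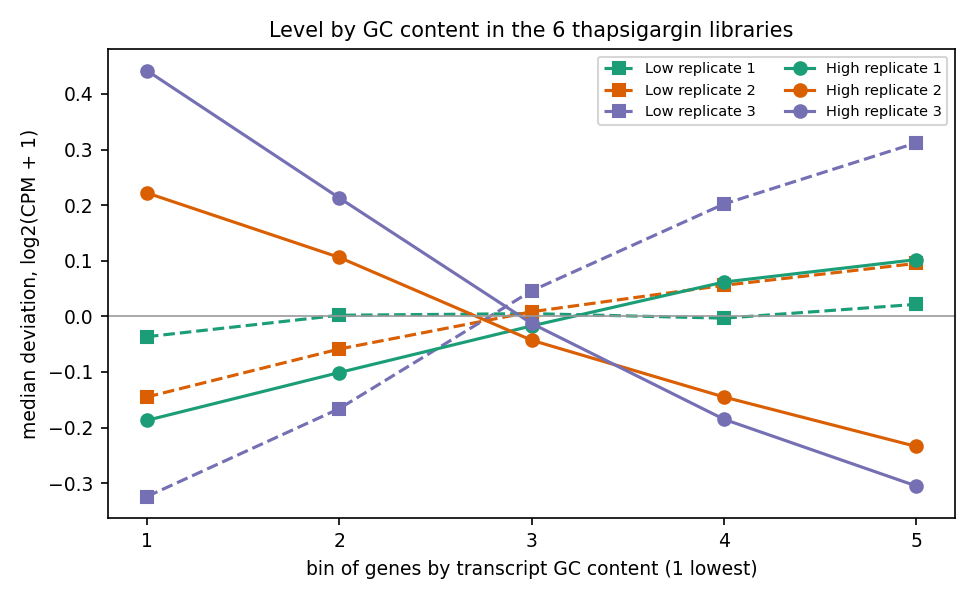
Median deviation of genes from the mean of the 6 thapsigargin libraries, in log2(CPM + 1), for 5 bins of genes by transcript GC content; each line is 1 library. High-dose replicates 2 and 3 slope downward, whereas high-dose replicate 1 slopes upward like low-dose replicates 2 and 3.

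ERN2 itself followed the doxycycline dose. It measured 32.1, 53.9 and 111.5 CPM in the low-dose libraries and 271.9, 175.0 and 174.9 CPM in the high-dose libraries, and the groups did not overlap. The fold was 3.16 (log2 fold change 1.66, SE 0.35, adjusted p = 0.0083, edgeR). ERN2 missed the threshold in the alternative test (adjusted p = 0.016, DESeq2) and stayed called in 3 of the fits with 1 library left out. Uninduced cells with thapsigargin held 10.3 to 14.2 CPM, so the low dose was above the uninduced level in every library.

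Most of the genes called between doses in stressed cells were lower with high ERN2, a split that rested on high-dose replicate 1. Of 14493 genes tested, 771 (5.32%) fell and 34 (0.235%) rose at the high dose, whereas without that library 1309 fell and 1403 rose. The genes that fell were largely those of secreted, membrane and lysosomal proteins, with IGFBP2 5.28-fold lower, FN1 at a log2 fold change of -1.88 and CTSD at -1.61. The heat-shock protein genes HSPA8 and HSPA1B were among the few that rose. The CPM of the 3 libraries did not overlap between doses for 4558 genes (31.4%), so separation of the groups was common. The share of risen genes among the calls was 4.22%; it was 25.7% with DESeq2, 16.0% in a fit over all 6 groups, 34.3% without a filter on low counts, 19.5% with the GC trend removed and 51.7% without high-dose replicate 1. With the GC trend removed, 1202 of 14493 genes fell and 292 rose, and over all 6 groups 1725 of 15023 fell. List counts from those fits stand beside these larger backgrounds. Counts also depended on single libraries, from 42 calls without high-dose replicate 2 to 2712 without high-dose replicate 1. There were 217 and 143 without low-dose replicates 1 and 2, and 534 without high-dose replicate 3. Of the 60 called genes named here by rule, 28 and 22 stayed called without low-dose replicates 1 and 2, 12 without high-dose replicate 2 and 39 without high-dose replicate 3.

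The genes with the lowest fold changes code for proteins with a hydrophobic stretch near their start, a feature that can direct a nascent chain to the ER. The first 120 coding bases of 6 of them and of 2 risen genes are shown to make this visible, read 5′ to 3′ from GENCODE 29 transcripts (GRCh38). Capitals mark the 11 codons within the first 40 that scored highest in mean hydropathy on the Kyte-Doolittle scale.
HTRA3: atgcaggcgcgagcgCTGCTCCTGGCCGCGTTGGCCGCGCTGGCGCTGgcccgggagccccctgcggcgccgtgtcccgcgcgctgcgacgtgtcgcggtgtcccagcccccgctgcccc
GABRD: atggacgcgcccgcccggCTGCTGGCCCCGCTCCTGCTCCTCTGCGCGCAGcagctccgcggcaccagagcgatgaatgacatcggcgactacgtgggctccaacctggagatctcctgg
LPPR3: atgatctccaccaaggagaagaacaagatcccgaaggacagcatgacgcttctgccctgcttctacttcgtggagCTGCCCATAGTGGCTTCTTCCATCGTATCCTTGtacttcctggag
DNER: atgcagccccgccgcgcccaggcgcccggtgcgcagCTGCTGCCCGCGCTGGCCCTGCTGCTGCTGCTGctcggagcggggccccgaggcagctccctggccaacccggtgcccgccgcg
IGFBP2: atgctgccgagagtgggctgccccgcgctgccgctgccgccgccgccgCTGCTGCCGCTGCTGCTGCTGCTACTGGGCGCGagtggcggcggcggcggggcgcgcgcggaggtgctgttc
HTRA1: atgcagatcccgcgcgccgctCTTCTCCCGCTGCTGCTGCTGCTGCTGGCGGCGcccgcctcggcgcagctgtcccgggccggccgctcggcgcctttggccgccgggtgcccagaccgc
PFDN4: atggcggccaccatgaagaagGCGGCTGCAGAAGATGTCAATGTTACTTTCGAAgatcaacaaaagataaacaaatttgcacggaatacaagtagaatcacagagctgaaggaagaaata
ASPM: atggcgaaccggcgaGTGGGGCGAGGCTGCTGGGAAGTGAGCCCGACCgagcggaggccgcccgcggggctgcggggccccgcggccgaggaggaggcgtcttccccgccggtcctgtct

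The marked stretch of the 6 fallen genes scored 2.07 in LPPR3 to 2.95 in DNER and HTRA1, and that of the risen PFDN4 and ASPM scored 0.17 and -0.17. HTRA3 (chromosome 4, 8269765 to 8307111) and HTRA1 (chromosome 10, 122458551 to 122514908) code for secreted serine proteases. IGFBP2 (chromosome 2, 216632828 to 216664436) codes for a secreted binding protein of insulin-like growth factors. GABRD and DNER code for a GABA receptor subunit and a Notch-related membrane protein.

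IGFBP2 measured 17.3, 16.2 and 17.4 CPM at the low dose and 3.42, 3.802 and 2.43 CPM at the high dose (log2 fold change -2.40, SE 0.23, adjusted p = 3.2e-04, edgeR). Its low-dose libraries were close together and lay far above all 3 high-dose libraries. HTRA1 measured 14.8, 11.6 and 8.55 CPM against 2.88, 1.20 and 2.84 CPM, and DNER 7.43, 5.45 and 4.37 CPM against 0.99, 0.56 and 0.93 CPM. Neither gene overlapped between doses.

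The lowest fold changes of all rested on few reads. HTRA3 had 58, 57 and 31 reads at the low dose and 5, 3 and 6 at the high dose, a pooled ratio of 0.117 (95% exact interval 0.0623 to 0.202). GABRD had 52 reads against 5, a ratio of 0.117 (0.0365 to 0.291), and LPPR3 had 194 against 21, a ratio of 0.132 (0.0798 to 0.207). These intervals cover counting error only. The other genes among the 15 lowest were IGFBP7, GPC3, CGREF1, NPC2, FBLN1, CD82, PCDHGC3, FST and CPQ, with log2 fold changes of -2.27 (IGFBP7) to -2.14 (CPQ). IGFBP7, FBLN1 and FST are secreted proteins, GPC3 is a cell-surface proteoglycan, and NPC2 carries cholesterol inside the lysosome.

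Across all genes with a scored coding sequence (13207 tested), the share that fell differed with these features. Proteins were classed by a hydrophobic N-terminal segment (mean hydropathy of at least 2.0 over 11 residues within the first 40) and by a later membrane segment (at least 1.6 over 19 residues). Of 1274 genes with both, 302 (23.7%) fell and 0 rose (median log2 fold change -0.66). Of 1032 with the N-terminal segment alone, 212 (20.5%) fell and 3 rose (median -0.50). Of 2413 with a membrane segment alone, 195 (8.08%) fell and 3 rose (median -0.17). Of 8488 with neither, 56 (0.66%) fell and 27 rose (median 0.11). The background over these genes was 5.79% lower.

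The difference between the classes was also present at like GC content. In the lowest bin of GC content, the median log2 fold change was -0.18 for the 372 genes with an N-terminal segment and 0.43 for the 2273 without. In the highest bin it was -0.76 for 565 genes and -0.23 for 2074 genes. With the GC trend removed, the medians across the 5 bins were -0.64 to -0.42 with the segment and 0.08 to 0.10 without it.

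**Figure D2:**
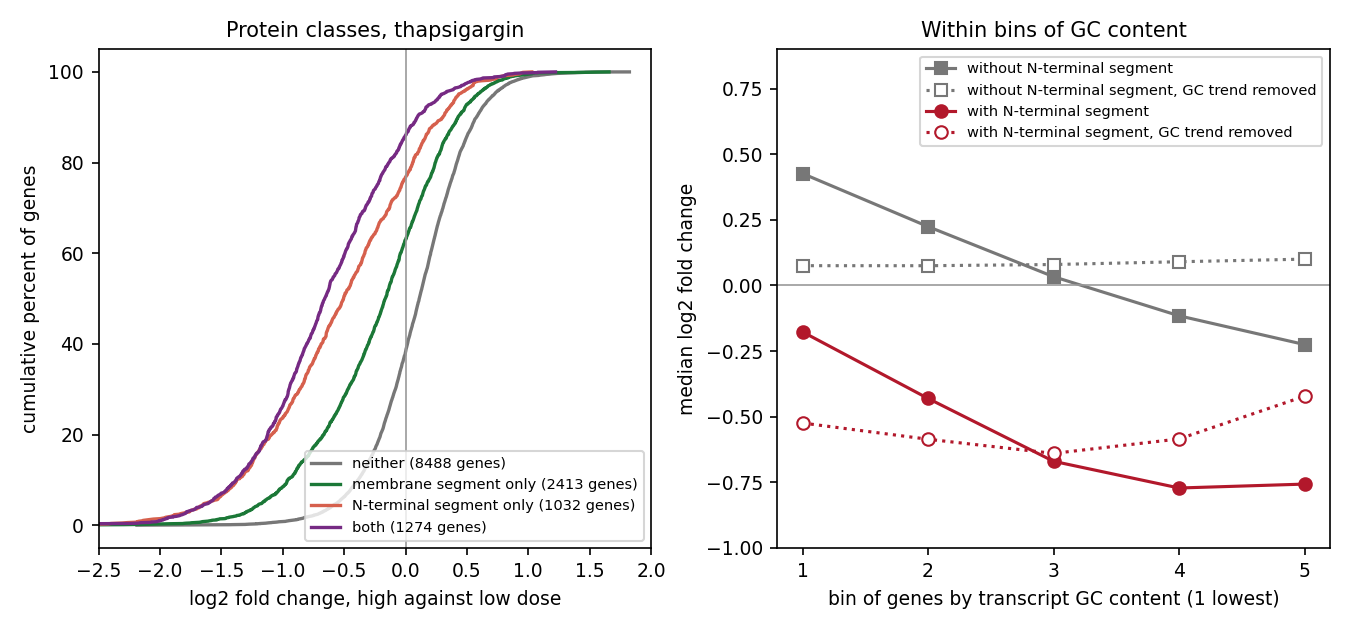
Left, cumulative percent of genes by log2 fold change (high against low dose, thapsigargin) for 4 protein classes. Right, median log2 fold change by bin of transcript GC content with (circles) and without (squares) an N-terminal segment, before (solid) and after (dotted) removal of the GC trend; the circles lie below the squares in all 5 bins.

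Genes of the extracellular matrix fell together. Of 15 basement membrane genes, 10 fell (66.7%, against 5.32% over all genes) and 0 rose. Their median log2 fold change was -1.24, beside 0.00 over all genes tested. Without high-dose replicate 2, 0 of these genes were called, with a median of -1.17. NID1 codes for nidogen, which links laminin to collagen IV. It measured 310.7, 269.0 and 157.8 CPM at the low dose and 70.0, 56.8 and 66.0 CPM at the high dose (log2 fold change -1.93, SE 0.22, adjusted p = 3.7e-04, edgeR). The collagen IV genes COL4A2 and COL4A1 fell (-1.68 and -1.73), as did the laminin genes LAMB1 and LAMC1. Of 19 interstitial matrix and collagen processing genes, 11 fell (57.9%, median -1.11). FN1, which codes for fibronectin, measured 1427, 1343 and 789.0 CPM against 350.3, 288.1 and 323.4 CPM. TNC, which codes for the matrix glycoprotein tenascin C, fell by 1.53 on the log2 scale, whereas COL5A2 (0.43) and COL1A1 (0.17) did not pass the test.

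Secreted factors and their inhibitors were lower as well. Of 6 IGF binding protein genes, 3 fell (50%, against 5.32% over all genes), IGFBP2, IGFBP7 and IGFBP5, and the list median was -1.70. Of 12 genes on a list of secreted protease inhibitors and protein S, 6 fell (50%, median -1.10). CST3, which codes for the cysteine protease inhibitor cystatin C, measured 75.8, 85.1 and 73.5 CPM at the low dose and 26.1, 21.3 and 17.6 CPM at the high dose. TIMP1, an inhibitor of matrix metalloproteinases, fell by 1.91 on the log2 scale (SE 0.23, adjusted p = 5.2e-04, edgeR).

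Lysosomal enzymes reach their compartment through the ER, and their genes fell in the largest number of any list described here, on a long list. Of 32 tested, 19 fell and 0 rose (median -1.02), and 31 lay below 0. The share that fell was 59.4%, beside 66.7% for basement membrane, 60% for MHC class I and 5.32% over all genes. Removal of the GC trend gave 26 that fell (median -0.90), and 5 fell without high-dose replicate 2. CTSD, which codes for cathepsin D, measured 211.2, 217.7 and 219.1 CPM against 85.0, 62.8 and 63.3 CPM (log2 fold change -1.61, SE 0.16, adjusted p = 3.2e-04, edgeR). NPC2 measured 19.99, 18.9 and 15.2 CPM against 4.42, 2.75 and 4.60 CPM. PSAP, the precursor of the saposins, and NEU1, a sialidase, fell by 1.796 and 1.81 on the log2 scale. The IDS (0.16) and IDUA (-0.13) enzymes of glycosaminoglycan breakdown did not pass the test.

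Genes of cell-surface proteins fell in part. Of 16 integrin subunit genes, 5 fell (31.25%, against 5.32% over all genes, median -0.95). ITGB5 measured 22.5, 17.9 and 14.9 CPM against 6.35, 5.28 and 3.93 CPM, and ITGA5 was at -0.86 on the log2 scale. Of 25 receptor tyrosine kinase genes, 8 fell (32%, median -0.75). EPHB2, an ephrin receptor, measured 36.2, 35.7 and 34.2 CPM against 14.8, 12.3 and 16.2 CPM, and PTK7, a pseudokinase receptor, fell by 1.20 on the log2 scale. Of 10 MHC class I and peptide loading genes, 6 fell (60%, median -0.92), among them HLA-C (-1.13) and TAP1 (-1.58), a subunit of the peptide transporter. With the GC trend removed, 8 integrin, 13 receptor tyrosine kinase and 8 MHC class I genes fell. These counts were 1, 5 and 2 with the replicate block, and 0 in each list without high-dose replicate 2.

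Genes of sterol synthesis, most of whose enzymes sit in the ER membrane, were also lower. Of 17 genes, 8 fell (47.1%, against 5.32% over all genes) and 0 rose (median -0.75). The number that fell was 14 with the GC trend removed, 4 with the replicate block and 2 without high-dose replicate 2. DHCR7, the last reductase of cholesterol synthesis in one branch, measured 96.0, 102.2 and 97.5 CPM at the low dose and 35.4, 25.4 and 28.7 CPM at the high dose. SREBF2, the transcription factor of this pathway, fell by 1.28 on the log2 scale, and INSIG1, which holds that factor in the ER, by 1.54.

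**Figure D3:**
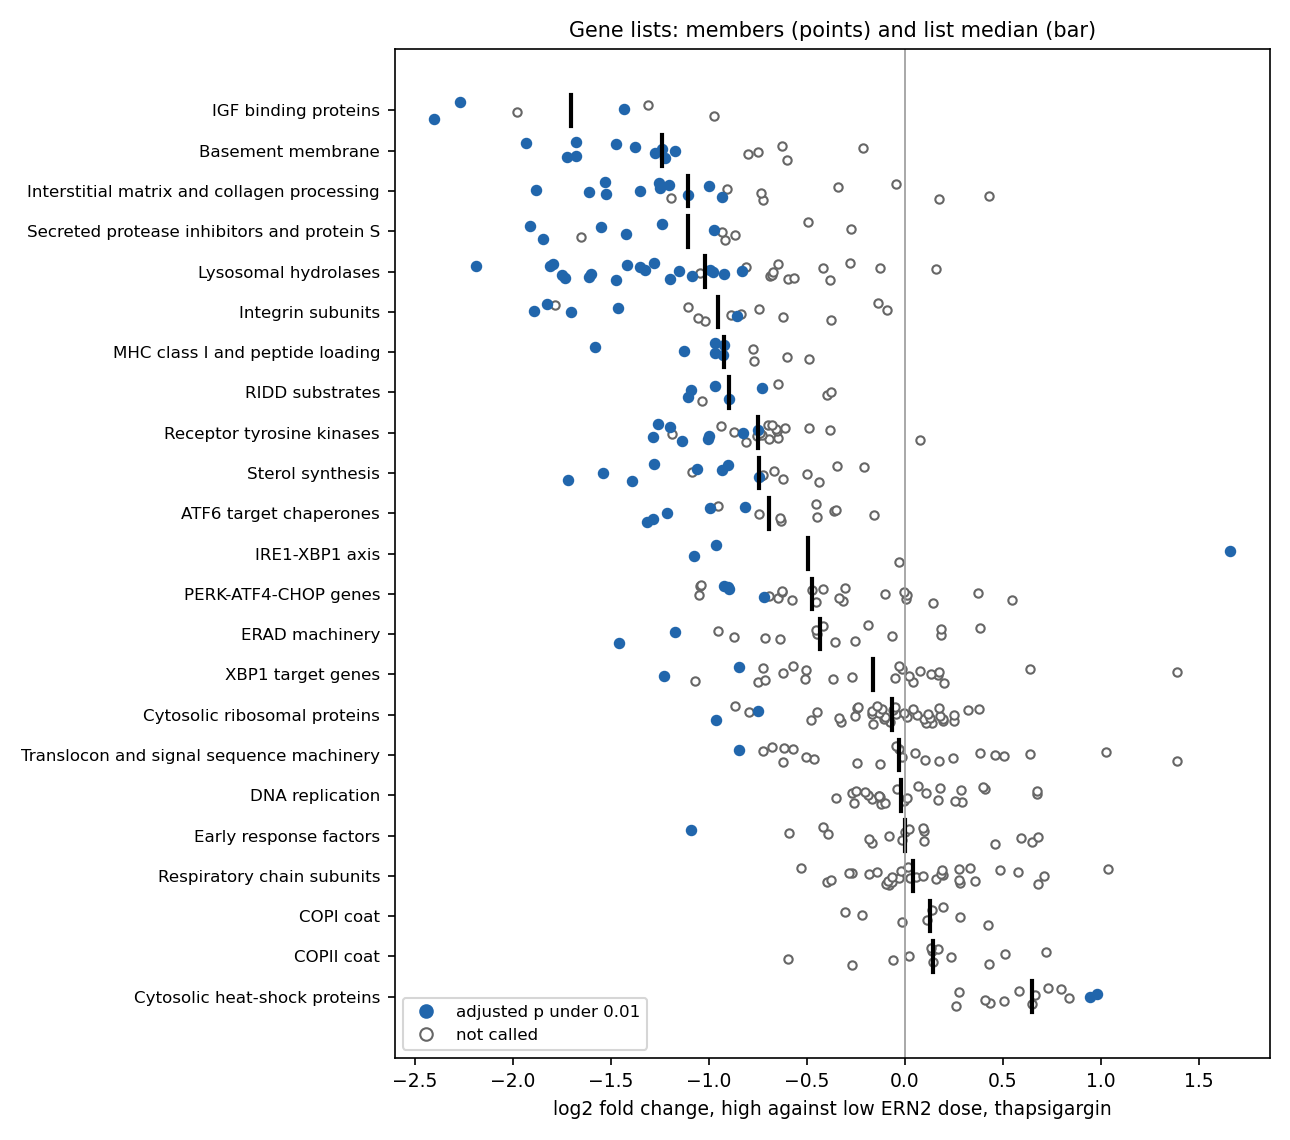
Log2 fold change of each tested member of 23 gene lists, high against low dose in thapsigargin-treated cells; filled points passed adjusted p under 0.01 and bars are list medians. The list medians run from -1.70 for IGF binding proteins to 0.65 for the list labelled cytosolic heat-shock proteins, which also holds HSPD1 and HSPE1.

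The genes of the IRE1 axis moved apart. XBP1, the substrate of IRE1 splicing, measured 459.0, 434.7 and 369.4 CPM at the low dose and 221.5, 199.3 and 225.5 CPM at the high dose, with no overlap (log2 fold change -0.96, SE 0.14, adjusted p = 0.0011, edgeR). These levels count both splice forms together, since reads were summed per gene. ERN1 measured 11.2, 14.8 and 10.2 CPM against 6.15, 5.14 and 5.84 CPM and fell by 1.07 on the log2 scale (adjusted p = 0.0062, edgeR). ERN1 missed the threshold with the replicate block (adjusted p = 0.025, edgeR). It stayed called in only 2 of the fits with 1 library left out, and XBP1 in 3. BHLHA15, which codes for the XBP1-driven secretory factor MIST1, measured 2.73, 8.13 and 5.15 CPM against 6.201, 5.63 and 3.77 CPM, and the groups overlapped.

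The 24 XBP1 target genes centred on a log2 fold change of -0.16 (median), with 2 that fell and 0 that rose. The share that fell, 8.33%, was close to the 5.32% over all genes. With the GC trend removed, 7 fell (median -0.39), beside 1202 of all 14493 genes. In the fit over all 6 groups 9 fell, beside 1725 of all 15023. Without high-dose replicate 1, 3 fell and 2 rose, and without high-dose replicate 2, 0 fell. The 2 of the fit reported here were SDF2L1, an ER chaperone component (127.9, 187.6 and 203.2 CPM against 97.6, 61.1 and 62.0 CPM), and SRPRB, a subunit of the signal recognition particle receptor (log2 fold change -0.84). DNAJB9, an ER co-chaperone and a standard XBP1 target, measured 77.8, 90.3 and 63.7 CPM against 63.1, 83.2 and 91.4 CPM, with overlapping groups (log2 fold change 0.04, SE 0.19).

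RIDD substrates were lower as a group. Of 9 tested from a list of 10 such mRNAs, 5 fell (55.6%, against 5.32% over all genes) and 0 rose (median -0.90), and all 9 lay below 0. The 5 were COL6A1 (-1.11), SCARA3 (-1.09), TAPBP (-0.97), CD59 (-0.90) and SPARC (-0.73). The share that fell was larger for basement membrane (66.7%) and lysosomal genes (59.4%), lists not drawn up for RIDD. It was 22.3% for all genes with an N-terminal segment. With the GC trend removed 4 RIDD substrates fell (median -0.74). With the replicate block 1 of the list fell, and without high-dose replicate 2, 0 fell (median -0.90). BLOC1S1, the mRNA most often used as a marker of RIDD, measured 3.56, 3.59 and 3.25 CPM at the low dose and 2.63, 1.34 and 1.03 CPM at the high dose. Its groups did not overlap, but the difference missed the threshold (log2 fold change -1.04, SE 0.35, adjusted p = 0.065, edgeR).

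**Figure D4:**
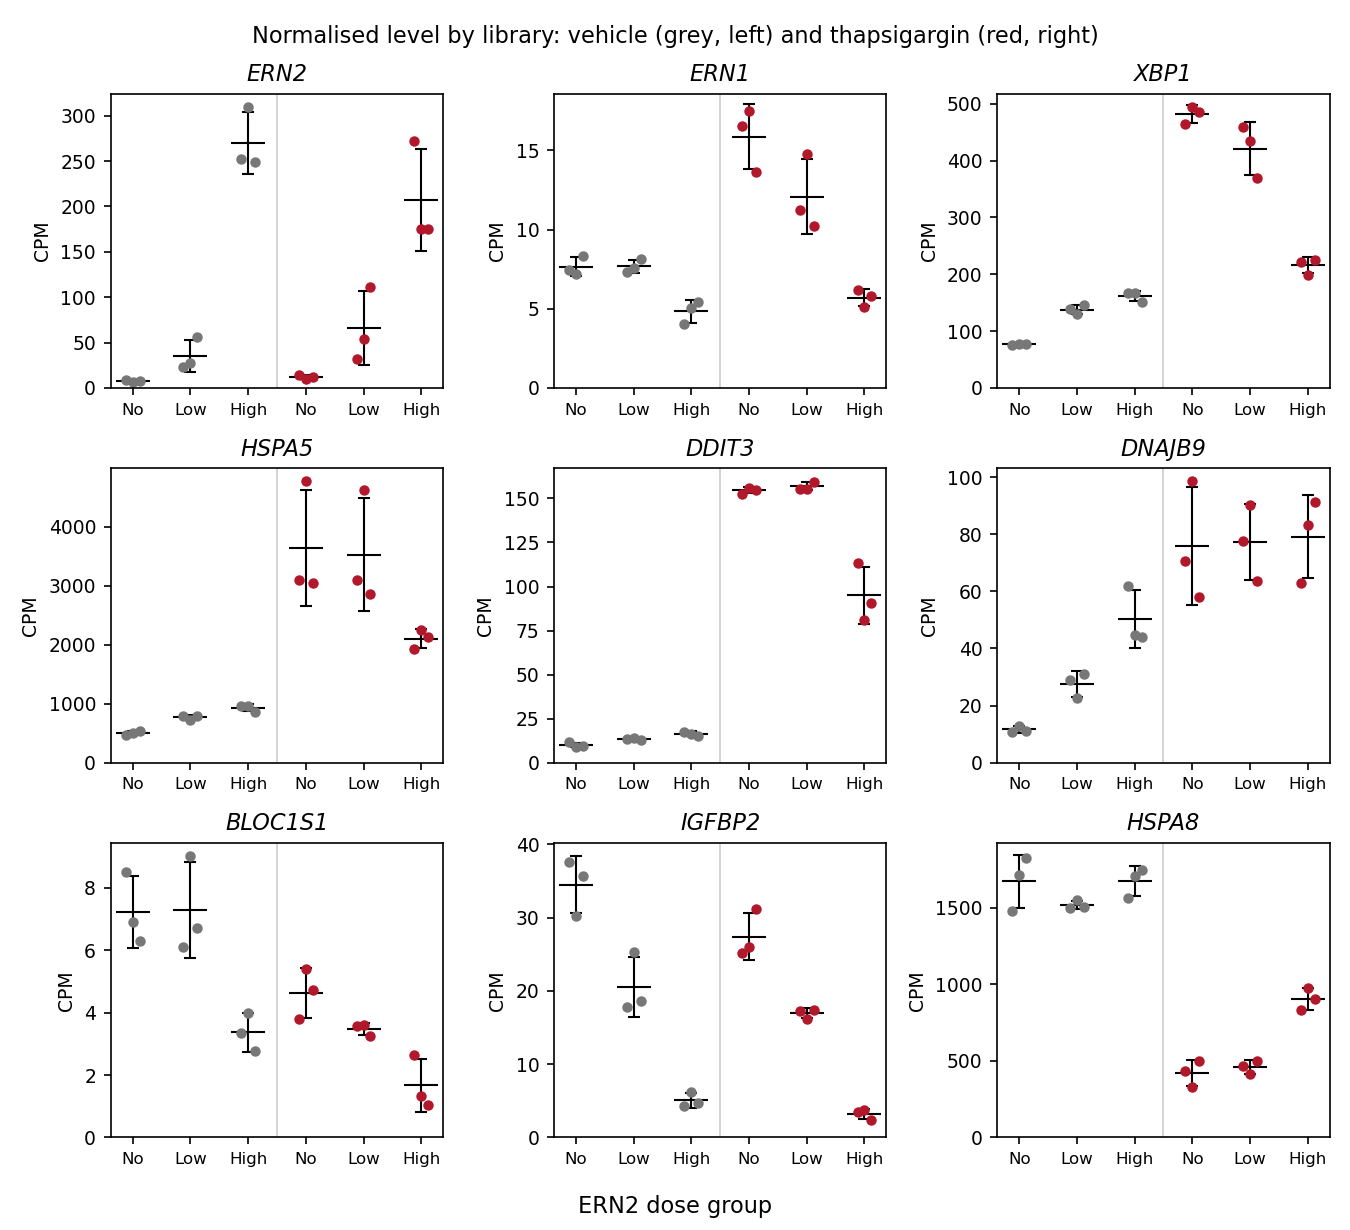
CPM of 9 genes in all 18 libraries, by ERN2 dose group without (grey) and with (red) thapsigargin; points are libraries, bars the mean and SD of 3. XBP1, DDIT3 and HSPA5 are lower at the high than at the low dose with thapsigargin, and HSPA8 is higher.

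The ATF6 and PERK arms were lower in part. Of 14 ATF6 target genes, 5 fell (35.7%, against 5.32% over all genes) and 0 rose, and all 14 lay below 0 (median -0.69). The list holds chaperones and also SEL1L, SYVN1, HERPUD1 and DERL3, which are counted again below under ER-associated degradation. The GC-corrected count was 8 (median -0.83), and 0 fell without high-dose replicate 2 (median -0.66). CALR, a calcium-binding lectin chaperone, measured 2186, 2601 and 1685 CPM against 821.1, 818.5 and 956.5 CPM (log2 fold change -1.31, SE 0.17, adjusted p = 5.8e-04, edgeR). HYOU1, an ER chaperone of the HSP70 family, fell by 1.21 on the log2 scale, and CRELD2, PDIA4 and PDIA6 fell too. HSPA5 measured 3102, 4624 and 2851 CPM against 1922, 2244 and 2131 CPM, and although its groups did not overlap it missed the threshold (log2 fold change -0.74, SE 0.18, adjusted p = 0.017, edgeR). HSPA5 passed with the GC trend removed (adjusted p = 0.0031, edgeR), over all 6 groups (0.0018, edgeR) and with DESeq2 (0.0041). It missed with the replicate block (0.016, edgeR) and was called in 1 of the fits with 1 library left out.

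Of 25 genes of the PERK-ATF4-CHOP arm, 4 fell (16%, against 5.32% over all genes, median -0.47). With the GC trend removed 6 fell (median -0.37). With the replicate block and without high-dose replicate 2, 0 fell (medians -0.49 and -0.50). DDIT3 measured 155.5, 155.6 and 159.6 CPM at the low dose and 113.1, 81.2 and 90.5 CPM at the high dose (log2 fold change -0.72, SE 0.16, adjusted p = 0.0095, edgeR). DDIT3 missed the threshold with the replicate block (adjusted p = 0.041, edgeR) and stayed called in only 1 of the fits with 1 library left out. The others that fell were STC2 (-0.90), a secreted glycoprotein, TNFRSF10B (-0.92), a death receptor, and SLC3A2 (-0.90), the heavy chain of amino acid exchangers. ATF4 itself, at -0.32, did not pass. Of 16 genes of ER-associated degradation, 2 fell (12.5%, against 5.32% over all genes, median -0.43), among them OS9 (-1.18), a lectin. With the GC trend removed 4 fell, and without high-dose replicate 2, 0 fell.

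The genes that thapsigargin raised in uninduced cells give a list chosen in libraries that the dose comparison did not use. There, 268 of 14397 genes (1.86%) were called and at least 2-fold higher with thapsigargin than with vehicle. Of the 265 tested between doses, 18 (6.79%) fell and 0 rose at the high dose, against 5.32% lower over all genes, so the share called was near the background. Their median log2 fold change was -0.39, however, and 225 lay below 0, against 7209 of 14493 genes. With the GC trend removed, 31 fell and the median was -0.30, where 1202 of all 14493 genes fell. Without high-dose replicate 2, 0 fell and the median was -0.36. The fallen genes included XBP1, DDIT3, SDF2L1, HYOU1, STC2 and ERN1.

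At least 2-fold lower with thapsigargin in uninduced cells were 85 genes (0.59%), of which 84 were tested between doses. Here 12 fell (14.3%, against 5.32% over all genes) and 8 rose, where 0.235% of all genes rose (list median -0.04). With the replicate block 8 fell and 1 rose, and without high-dose replicate 2, 1 fell and 0 rose. The fallen genes included the collagen genes COL2A1, COL4A1 and COL4A2, and those that rose included HSPA8, HSPA1B and ASPM.

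**Figure D5:**
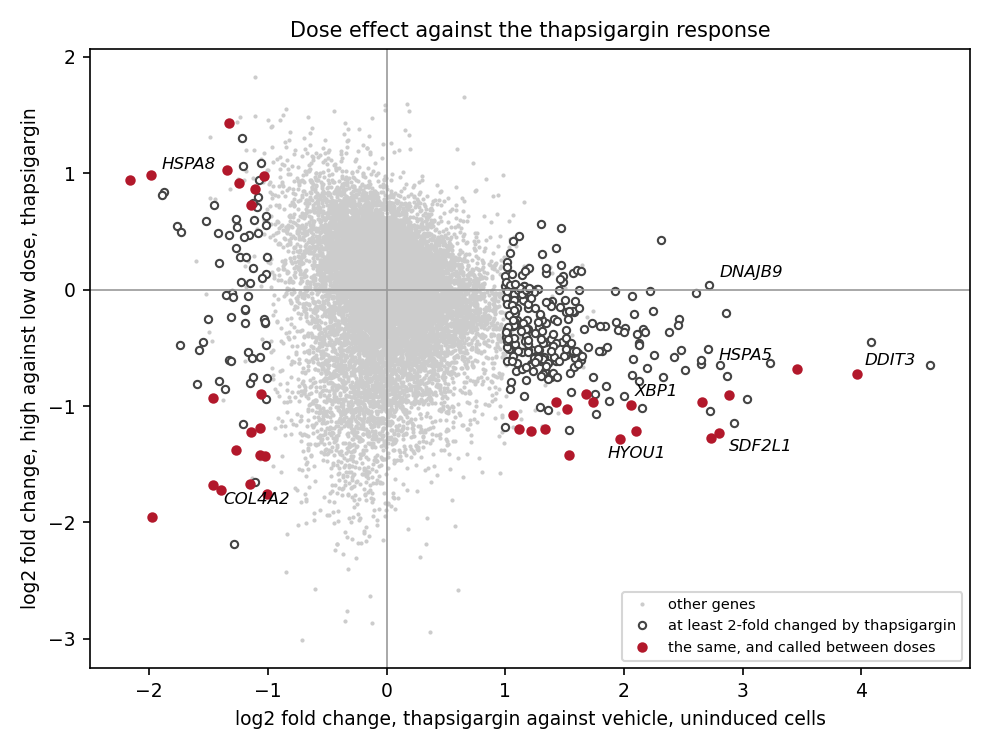
Log2 fold change between ERN2 doses with thapsigargin (vertical) against the log2 fold change for thapsigargin in uninduced cells (horizontal); each point is a gene. Most of the genes that thapsigargin raised at least 2-fold lie below 0, and 18 of them (filled) were called.

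The list of heat-shock protein genes, cytosolic but for the mitochondrial HSPD1 and HSPE1, had the highest median. All 13 lay above 0 (median 0.65), and 2 rose, where 0.235% of all genes rose. The number that rose was 7 with the GC trend removed (median 0.49) and 9 without high-dose replicate 1. It was 1 with the replicate block and 0 without high-dose replicate 2 (median 0.62). HSPA8, the constitutive HSP70, measured 466.9, 413.0 and 499.7 CPM at the low dose and 835.3, 974.7 and 905.9 CPM at the high dose (log2 fold change 0.98, SE 0.14, adjusted p = 9.7e-04, edgeR). HSPA1B, an inducible HSP70, measured 53.6, 57.6 and 83.9 CPM against 131.3, 119.1 and 123.5 CPM (0.94, SE 0.18). HSPA1A (0.84) and the chaperonin gene HSPE1 (0.79) did not pass. In uninduced cells HSPA8 fell with thapsigargin (log2 fold change -1.99), so the high-dose level was nearer to the level without thapsigargin.

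The other genes with the highest fold changes were PFDN4, ASPM, CENPQ, FPGT, ZCRB1, CETN3, TRIB1, C1GALT1C1 and DCUN1D1. PFDN4, a prefoldin subunit, measured 17.7, 15.8 and 15.0 CPM at the low dose and 20.1, 68.7 and 82.8 CPM at the high dose, so that high-dose replicate 1 lay near the low-dose libraries. ASPM, which codes for a spindle protein, measured 117.0, 95.7 and 74.0 CPM against 130.3, 268.0 and 374.9 CPM. The risen genes had a median GC content of 40.6% against 49.3% for all genes with a known transcript. With the GC trend removed, the log2 fold change was 1.25 for PFDN4 in place of 1.82 and 0.97 for ASPM in place of 1.43, and 28 of the 34 stayed called. Without high-dose replicate 2, 0 of the 34 stayed called. The part of GC content in these rises was not tested.

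In other lists of the secretory pathway and of cell growth, the share that fell was at or below the 5.32% over all genes, or close to it. The COPII and COPI coat genes, which carry cargo between ER and Golgi, had 0 of 12 and 0 of 8 called, with medians of 0.14 and 0.13. At an unadjusted p under 0.05, 4 COPII genes and 1 COPI gene passed. Of 23 translocon and signal sequence genes, 1 fell (SRPRB, median -0.03), but 5 fell with the GC trend removed (median -0.31), and 3 fell and 5 rose without high-dose replicate 1. That library also moved the COPII and respiratory chain lists, with 3 and 5 genes higher without it. Of 26 DNA replication genes and of 32 respiratory chain genes, 0 were called (medians -0.02 and 0.04), with 3 and 7 at an unadjusted p under 0.05. Of 40 cytosolic ribosomal protein genes, 2 fell, among them RPS2 (-0.75), and the median was -0.07. Of 17 early response factor genes, 1 fell, JUND (-1.09), and 4 rose with the GC trend removed.

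The same doxycycline step was compared in vehicle-treated cells, in 6 other libraries. ERN2 rose there from a mean of 35.2 to 270 CPM (log2 fold change 2.92), against 1.66 with thapsigargin. That difference (-1.22) was not called (adjusted p = 0.787, edgeR), but the step in ERN2 was not matched between the comparisons. With vehicle, 354 of 14549 genes fell (2.43%) and 2 rose (0.0137%). Of the 354, 306 (86.4%) also fell with thapsigargin, and these were 39.7% of the 771. Direction was shared more widely than calls. Of the 771, 765 lay below 0 with vehicle (median -0.75), and all 354 lay below 0 with thapsigargin (median -1.285). The basement membrane list had 11 of 15 lower and a median of -1.07, and the lysosomal list 14 of 33 and -0.75. RIDD substrates had 4 of 9 lower and a median of -0.96. IGFBP2 fell by 2.04 on the log2 scale in vehicle-treated cells (adjusted p = 0.0020, edgeR). Genes that thapsigargin had raised had a median of 0.16 in vehicle-treated cells, with 0 lower.

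The difference of the dose effects, with thapsigargin minus with vehicle, was tested over 12 libraries. No gene was called at an adjusted p under 0.01 (0 of 14913, 0%, edgeR), 926 passed an unadjusted p under 0.05, and DESeq2 called 8. XBP1 had the smallest p. Its dose effect was 0.21 in vehicle-treated cells (137.8 ± 7.80 CPM at the low and 161.7 ± 9.54 CPM at the high dose, SD, n = 3) and -0.96 with thapsigargin, a difference of -1.13 (SE 0.15, adjusted p = 0.0495, edgeR). Its adjusted p was 0.177 with the replicate block and stayed under 0.05 in 2 of 12 fits with 1 library left out. HERPUD1, a gene of ER-associated degradation, and DDIT3 followed among the negative differences (-0.89 and -0.96). The smallest p among the positive differences belonged to HSPA8 (0.90), HOXA5 (1.03), a homeobox factor, and ZBTB7A (0.88), a transcriptional repressor. None of these 5 passed an adjusted p of 0.05, so whether their dose effects differed with thapsigargin was not resolved by these libraries.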

How the data were processed

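RNA-seq libraries (KAPA stranded mRNA kit, single-end reads) were made from HEK293doxERN2 cells in 6 groups of 3. The authors aligned reads with STAR to hg38 and deposited a table of raw counts per gene symbol (25435 rows, 28 with symbols turned into dates, 0 columns unused). Their annotation and the strand setting of the counting are not given in the sources used here, so overlapping and antisense genes cannot be told apart.

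From these counts, genes passing filterByExpr (minimum count 10) were tested with edgeR 4.0.16 (R 4.3.3), trimmed-mean scaling and Benjamini-Hochberg adjustment at 0.01, on the 6 libraries compared, or on 12 for the difference of the dose effects. DESeq2 1.42.0 was an alternative. On simulated counts the share of false calls exceeded the threshold with edgeR and exceeded it by more with DESeq2, so counts of calls are read with that in mind. Symbols matched GENCODE 29 (GRCh38) for 23521 rows. Protein classes came from the translated GENCODE coding sequences rather than from a RefSeq protein table. GC content was known for 91.1% of tested genes and 99.1% of called genes.

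The comparison, gene lists and naming rule were chosen with earlier results of these data known. Genes named were 8 genes of the pathway, the 10 highest and 15 lowest called genes with separated groups, the 2 smallest p-values of each list, and the 3 smallest p-values of the dose-effect difference in each direction; further genes were named from the lists after their values were seen, and a few genes that the rule picks are not reported here. No promoter is shown, because no XBP1 target rose. Removal of the GC trend (lowess span 0.3), thinning of counts to the smallest library and the genes responding to thapsigargin in uninduced cells were added after seeing the data. Same-numbered libraries did not deviate together with thapsigargin (correlations -0.48, 0.19 and -0.52). With vehicle 2 of the 3 pairs did (0.81, 0.59 and -0.15), and since not every pair was above 0.1, replicate numbers were not used as pairs.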

Additional observations from a re-analysis of the deposited data

Results flagged for a closer look

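XBP1 is listed because its dose effect differed between thapsigargin and vehicle in the test of the difference itself, at an adjusted p of 0.0495 (edgeR), which is under 0.05 and above the 0.01 used for calls. The difference was -1.13 on the log2 scale (SE 0.15), from 0.21 with vehicle to -0.96 with thapsigargin, and all 3 high-dose libraries lay below all 3 low-dose libraries with thapsigargin. That adjusted p was 0.177 with the replicate block. With 1 of the 12 libraries left out it ran from 0.0162 to 0.370, and it stayed under 0.05 only without low-dose replicate 3 and without high-dose replicate 1, both with thapsigargin. It was 0.0042 with the GC trend removed and 7.0e-04 in the fit over all 6 groups. Groups of 3 libraries are too small for a test of single outlying libraries.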

How the results depend on the processing

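With thapsigargin, 805 genes were called. The count was 1647 with DESeq2, 1646 without a filter on low counts, 2054 in the fit over all 6 groups, 1494 with the GC trend removed, 2061 at an adjusted p of 0.05 and 384 with the replicate block. It ran from 42 (without high-dose replicate 2) to 2712 (without high-dose replicate 1) with 1 library left out. With vehicle, 356 were called. The count was 801 with DESeq2, 638 without the filter, 628 over all 6 groups, 889 with the GC trend removed, 836 at 0.05, 1224 with the replicate block, and 0 (without high-dose replicate 3) to 496 with 1 library left out, with 9 without low-dose replicate 2 and 21 without high-dose replicate 1. For the difference of the dose effects the count was 0, but 8 with DESeq2 and 1 each over all 6 groups, with the GC trend removed and at 0.05. With 1 library left out it was 0 in every case.

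Of listed genes, 97 fell, but 163 over all 6 groups, 58 with the replicate block, 152 at 0.05, and 12 (without high-dose replicate 2) to 127 with 1 library left out. Of genes with an N-terminal segment, 514 fell, but 953 over all 6 groups, 273 with the block, 874 at 0.05, 363 with the stricter hydrophobicity cut of 2.4, and 36 to 708 with 1 library left out. Of genes raised by thapsigargin in uninduced cells, 18 fell, but 34 with DESeq2, 30 without the filter, 53 over all 6 groups, 10 with the block, 31 with the GC trend removed, 46 at 0.05, and 0 to 44 with 1 library left out. The cause was not tested. By the check of deviations, 1 of 3 same-numbered pairs correlated above 0.1 with thapsigargin and 2 of 3 with vehicle, short of the rule that all 3 do. The block, which moved the vehicle count from 356 to 1224, is therefore given as an alternative only.

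Among the 60 named genes that were called, no alternative run turned a direction. In place of 60 there were 36 calls with the replicate block and 56 with the GC trend removed, and 12 (without high-dose replicate 2) to 59 with 1 library left out. Depth limits HTRA3, GABRD and LPPR3, which had 1 to 12 reads in high-dose libraries.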
